A study of Mus musculus with 48 samples.

Results

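A list of 30 genes that mark the excitatory, glutamate-releasing neurons of the cerebral cortex was followed in punches of mouse striatum. The genes were taken by symbol from the deposited gene table, and 30 of 30 symbols were found among its 23420 genes. All 30 also passed the filter on low counts that left 16716 genes. RNA came from 16 mice about 50 days old, 8 carrying a 112 kb congenic segment and 8 wild-type C57BL/6J, with 4 females and 4 males in each genotype. As background, the segment of this line derives from the DBA/2J strain and is carried on C57BL/6J. The left and right striatum were each sampled with a 3 mm punch and combined, and each library was run on lanes 3, 4 and 5, which were summed. Mice are named as the deposited columns name them. The labels do not say whether mice shared a litter, and n counts mice throughout.

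The striatum lies under the cortex, from which it is divided by white matter, and is built mainly of GABA-releasing medium spiny neurons. Cortical pyramidal neurons send their axons into it, but their cell bodies, where most mRNA lies, stay in the cortex. The list was grouped into 18 pan-excitatory, 6 upper-layer, 4 deep-layer and 2 subplate markers. Pan-excitatory markers are shared by many pyramidal neurons, upper-layer markers label neurons that project within the cortex, deep-layer markers label neurons that project to the thalamus and brainstem, and subplate markers label the thin sheet that borders the white matter. Several of these genes are also known to be expressed outside the cortex. In pooled tissue, fewer cells of a type and less RNA per cell cannot be told apart.

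Each mouse had 73.1 to 82.0 M counts over the genes, M standing for the mega prefix. The tissue label was checked on striatal markers, which were abundant in every mouse. Ppp1r1b (DARPP-32) was at 1642 to 2293 counts-per-million (CPM), Adora2a at 428 to 570 CPM and Drd2 at 178 to 247 CPM. Xist, the RNA of the silenced X chromosome, was at 951 to 1549 CPM in 7 females and at 2.64 CPM in the eighth, wild-type Sample_4806. That mouse is called female here as labelled, and counts by sex are given with and without it. Mouse numbers were not spread evenly over the sexes: apart from Sample_4676 and Sample_4677, every mouse labelled female had a higher number than every male.

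The list split by behaviour, and promoters of 4 members from both sides of that split are shown. Slc17a7 encodes VGLUT1, the vesicular glutamate transporter of cortical neurons. Neurod2 encodes a basic helix-loop-helix factor of the excitatory lineage, and Cck encodes the neuropeptide cholecystokinin. These 3 genes varied strongly between mice, and Lmo3, which encodes a LIM-only transcription cofactor, hardly varied. The windows are the 250 bases before the RefSeq start of the gene on GRCm38.p6. They lie at chr7:45163671-45163920 on the plus strand for Slc17a7, chr11:98329646-98329895 on the minus strand for Neurod2, chr9:121495695-121495944 on the minus strand for Cck and chr6:138581969-138582218 on the minus strand for Lmo3. Capitals mark matches to CAGATG, an E-box of the kind bound by NeuroD factors, or to TCACACC, a T-box half-site, on either strand.
Slc17a7: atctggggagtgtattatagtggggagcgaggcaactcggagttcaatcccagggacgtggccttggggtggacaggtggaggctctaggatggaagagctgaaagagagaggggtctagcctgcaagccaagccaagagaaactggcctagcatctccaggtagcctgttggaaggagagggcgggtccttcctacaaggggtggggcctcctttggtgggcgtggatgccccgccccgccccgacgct
Neurod2: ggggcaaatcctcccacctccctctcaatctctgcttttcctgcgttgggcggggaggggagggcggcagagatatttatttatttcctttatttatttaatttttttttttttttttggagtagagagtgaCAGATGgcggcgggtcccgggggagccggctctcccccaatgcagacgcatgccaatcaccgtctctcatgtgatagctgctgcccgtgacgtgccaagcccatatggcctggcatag
Cck: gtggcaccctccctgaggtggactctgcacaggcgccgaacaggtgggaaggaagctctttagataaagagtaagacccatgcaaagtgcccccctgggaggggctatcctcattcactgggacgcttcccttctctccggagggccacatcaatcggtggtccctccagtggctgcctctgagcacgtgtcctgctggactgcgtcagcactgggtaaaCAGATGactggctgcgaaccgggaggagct
Lmo3: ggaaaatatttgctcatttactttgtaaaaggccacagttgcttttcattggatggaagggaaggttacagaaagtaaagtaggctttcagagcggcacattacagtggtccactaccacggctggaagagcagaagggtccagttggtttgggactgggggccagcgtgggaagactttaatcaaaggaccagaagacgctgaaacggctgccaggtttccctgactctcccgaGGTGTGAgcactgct

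RefSeq held such windows for 24 of the 30 members, 35 windows in all since some genes have several starts. CAGATG occurred in 5 of the 35, which belonged to Neurod2, Cck, Dkkl1, Cux2 and Etv1, and in 14.4% of all 32851 promoter windows of that length. TCACACC occurred in 3 of the 35, which belonged to Lmo3, Sv2b and Slc30a3, and in 3.3% of all windows. The general E-box CANNTG, which includes every CAGATG, occurred in 25 of the 35 and in 66.2% of all windows. Counted by gene, 14 members with a window were Slc17a7 itself or varied with it, as defined below. Of these 14, 3 held CAGATG, and of the 10 others with a window 2 did. The motif was thus found on both sides of the split, and a match is a description of the letters only.

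Slc17a7 varied widely between punches. It was lowest at 20.7 CPM in congenic male Sample_4673 and highest at 185.8 CPM in congenic female Sample_4804, an 8.98-fold range around a median of 99.9 CPM. The gene lies on chromosome 7 from 52419291 to 52431508 on NCBIM37. The 16 values formed a continuum. Their largest gap, 0.58 on the log2 scale, separated Sample_4673 from the next mouse, Sample_4739, at 31.0 CPM. Mice Sample_4731, Sample_4732 and Sample_4733 followed at 44.5 to 49.7 CPM, and the upper end held Sample_4676, Sample_4806, Sample_4734 and Sample_4804 at 150.7 to 185.8 CPM. Both genotypes and both sexes were present at the upper end, and the 2 lowest mice were congenic.

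**Figure D1:**
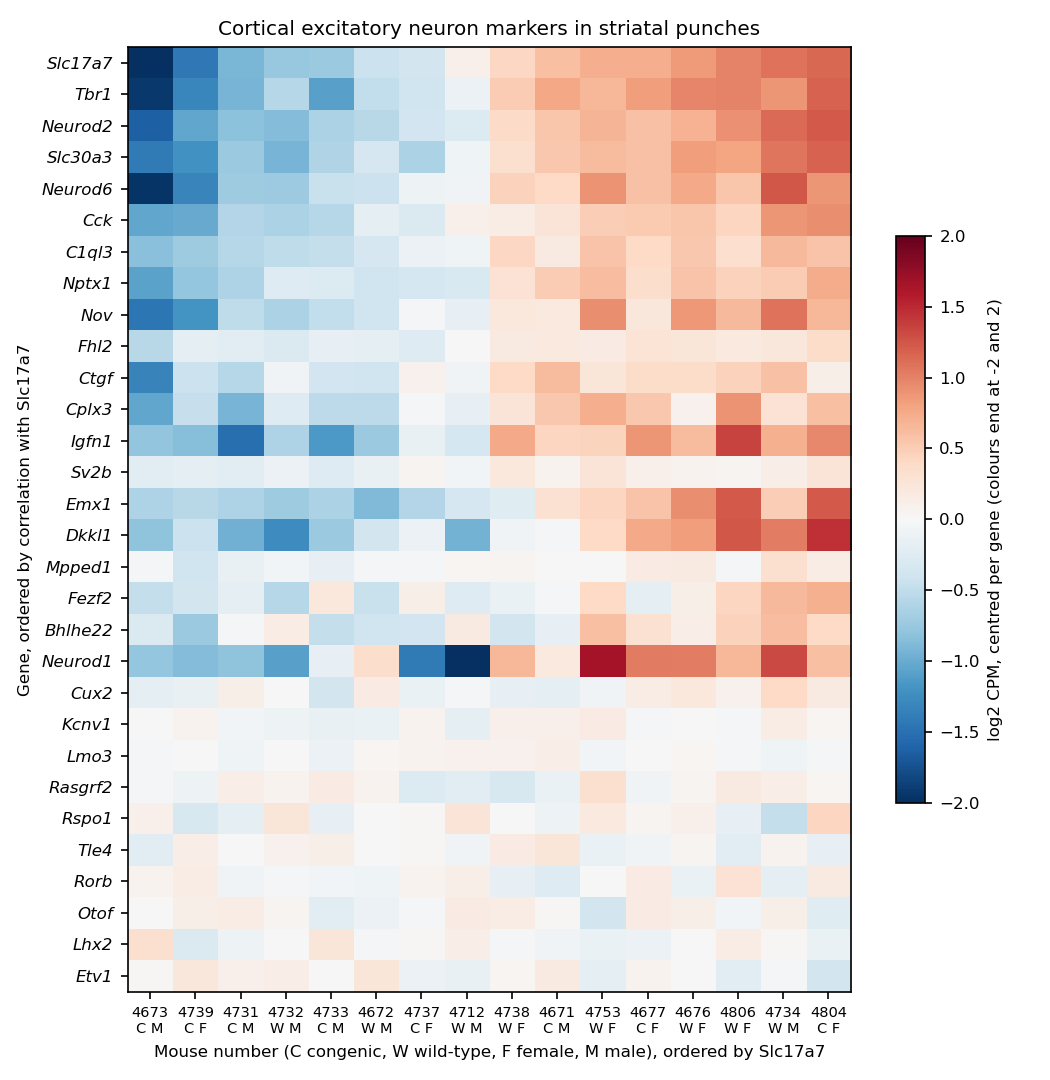
Centred log2 CPM of the 30 markers (rows, ordered by their correlation with Slc17a7) in the 16 mice (columns, ordered by Slc17a7). C and W give the genotype and F and M the labelled sex. The rows from Slc17a7 down to Dkkl1 change from low to high across the mice together, though Fhl2 and Sv2b span only 0.92 and 0.53 log2 units. The rows from Kcnv1 down span 0.25 (Lmo3) to 0.91 (Rspo1) log2 units, and none of them passed the correlation test described below.

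Correlation with Slc17a7 was measured across the 16 mice for all 16715 other genes tested, as Pearson's r of log2 CPM with a permutation test of 100000 permutations, adjusted over all of those genes. Positive correlations passed for 16 of 29 members, and the background was 1.73% of all genes. The members were chosen with earlier results of these data known. Their excess over the background is therefore a description and not a test of the list. Negative ones passed for 0 of 29, with a background of 0.586%. The members had a median r of 0.817 and the 16715 genes a median of -0.0068. Of all 16715 genes, 49.2% had a positive r, against 24 of the 29 members. The members that passed spanned the layers, with 12 of 17 pan-excitatory, 1 of 6 upper-layer, 1 of 4 deep-layer and both subplate markers.

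Among the pan-excitatory members, the transcription factors Neurod2 and Neurod6 and the vesicular zinc transporter Slc30a3 followed Slc17a7 most closely. Neurod2 was at 1.33 CPM in the lowest mouse, 4.48 at the median and 9.82 in the highest, with r = 0.985 and a slope of 0.89 log2 units per log2 unit of Slc17a7. Its permutation p of 1e-05 was the smallest that the permutations can give, with an adjusted p of 0.00229. Spearman's rho was 0.994 with the same p, and r was 0.986 without Sample_4673 and Sample_4739, the mice farthest from the median of Slc17a7. Neurod6, another factor of this family, ranged from 1.52 to 14.2 CPM with r = 0.980 and a slope of 0.89. Slc30a3, the transporter that loads zinc into glutamatergic vesicles, ranged from 1.06 to 6.53 CPM with r = 0.982 and a slope of 0.86. The amount of each of these 3 transcripts relative to Slc17a7 varied less than its own level. Neurod2 made 3.89% to 6.52% of the Slc17a7 CPM, Neurod6 5.31% to 8.86% and Slc30a3 2.84% to 5.11%. These shares had ranges of 1.68-fold, 1.67-fold and 1.80-fold, against 7.39-fold, 9.38-fold and 6.18-fold for the CPM of the 3 genes.

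The other pan-excitatory members that passed covered smaller ranges or lower levels. Cck, with a 3.89-fold range up to 42.8 CPM, had r = 0.978 and a slope of 0.64. C1ql3, a C1q-like protein of synapses, at 3.73 to 10.4 CPM, had r = 0.967 and a slope of 0.51. Nptx1, a neuronal pentraxin that gathers at excitatory synapses, at 28.1 to 99.1 CPM, had r = 0.962 and a slope of 0.56. Fhl2, a LIM-domain protein, at 6.44 to 12.2 CPM, had r = 0.949 and a slope of only 0.26. Emx1, a homeobox factor of the dorsal forebrain, at 0.472 to 2.13 CPM, Dkkl1, a Dickkopf-like secreted protein, at 0.311 to 2.19 CPM, and Igfn1, an immunoglobulin-like and fibronectin-domain protein, at 0.371 to 2.84 CPM, had r of 0.840, 0.817 and 0.876. Their adjusted p values were 0.00942, 0.0150 and 0.00363 in the same permutation test. Dkkl1 lies 31.4 kb from Slc17a7 on chromosome 7, on the opposite strand, so that these 2 members are also neighbours in the genome.

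Sv2b and Mpped1 passed while changing little. Sv2b, a glycoprotein of synaptic vesicles and the most abundant member per length at 35.7 CPM per kb, was at 168.5 CPM in the lowest mouse, 210.2 at the median and 243.1 in the highest. It had r = 0.855 (adjusted p = 0.00544), rho = 0.844 (permutation p = 7e-05), r = 0.848 without Sample_4673 and Sample_4739, and a slope of 0.16. Slc17a7 stood next to it in level, at 34.1 CPM per kb. Mpped1, a metallophosphoesterase-domain protein, ranged from 50.3 to 82.3 CPM with r = 0.733 and an adjusted p of 0.0400. Its call was lost in 13 of the 16 fits that left out a single mouse, with r of 0.785 without Sample_4673 and Sample_4739. The calls of the other 15 members were kept in each of those 16 fits.

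Of the upper-layer markers, Nov alone passed. Nov, a matricellular protein also called CCN3, lies on chromosome 15 from 54577257 to 54585594 on NCBIM37. It was at 1.95 CPM in the lowest mouse, 5.70 at the median and 11.4 in the highest, and Sample_4734, Sample_4753 and Sample_4676 had its highest values. It had r = 0.958 (adjusted p = 0.00229), rho = 0.944 (permutation p = 1e-05), r = 0.921 without Sample_4673 and Sample_4739, and a slope of 0.74. Otof, the calcium sensor otoferlin and the most abundant upper-layer marker per length at 5.90 CPM per kb, was at 36.1 CPM in the lowest mouse, 47.6 at the median and 52.2 in the highest, with r = -0.102 (adjusted p = 0.896), rho = -0.074 (permutation p = 0.788) and r = -0.034 without Sample_4673 and Sample_4739. The other 4 did not pass either. Cux2, a homeobox factor of upper layers, had r = 0.530 (adjusted p = 0.280), and Rasgrf2, a Ras exchange factor, Rspo1, an R-spondin that raises Wnt signalling, and Rorb, a nuclear receptor of the granular layer, had r of 0.129, 0.115 and -0.067.

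Of the deep-layer markers, Tbr1 alone passed, with the highest r of all members. Tbr1, a T-box factor of early-born neurons that project to the thalamus, lies on chromosome 2 from 61640987 to 61652171 on NCBIM37. It was at 2.47 CPM in the lowest mouse, 11.1 at the median and 21.4 in the highest. It had r = 0.988 (adjusted p = 0.00229), rho = 0.979 (permutation p = 1e-05), r = 0.981 without Sample_4673 and Sample_4739, and a slope of 0.99, and it made 8.97% to 12.9% of the Slc17a7 CPM. Tle4, a Groucho-type corepressor of the deepest layer and the most abundant deep-layer marker per length at 26.7 CPM per kb, was at 104.9 CPM in the lowest mouse, 124.6 at the median and 145.4 in the highest, with r = -0.065 (adjusted p = 0.938), rho = -0.185 (permutation p = 0.491) and r = -0.348 without Sample_4673 and Sample_4739. Fezf2, a zinc-finger factor of neurons that project below the cortex, had r = 0.725 (adjusted p = 0.0653) over 2.27 to 5.56 CPM. Etv1, an ETS factor, had the lowest r of the list, -0.514 (adjusted p = 0.302), over 51.8 to 78.4 CPM.

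Both subplate markers passed, with slopes below those of the leading members. Ctgf, a matricellular protein also called CCN2, lies on chromosome 10 from 24315248 to 24318489 on NCBIM37. It was at 4.01 CPM in the lowest mouse, 10.9 at the median and 15.9 in the highest, with r = 0.897 (adjusted p = 0.00229), rho = 0.826 (permutation p = 0.00021), r = 0.835 without Sample_4673 and Sample_4739, and a slope of 0.48. Cplx3, a complexin that acts in vesicle release, ranged from 2.93 to 11.3 CPM with r = 0.895 and a slope of 0.54. Their proportion to Slc17a7 varied more widely than that of Neurod2, Neurod6 or Slc30a3. Ctgf made 5.95% of the Slc17a7 CPM in the mouse where this share was lowest and 24.2% where it was highest, and Cplx3 4.19% and 14.2%.

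**Figure D2:**
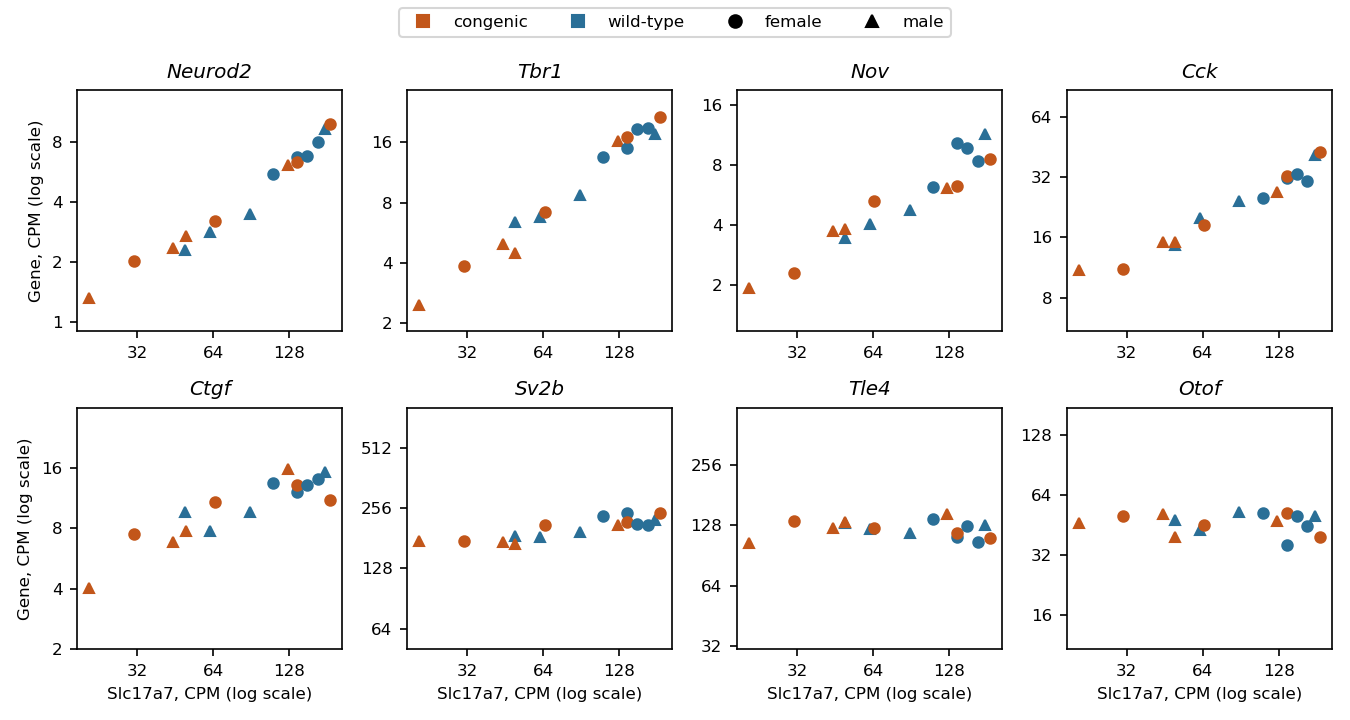
CPM of 8 markers (vertical) against CPM of Slc17a7 (horizontal), both on log scales with the same vertical span in each panel. Each point is a mouse, coloured by genotype and shaped by labelled sex. Neurod2, Tbr1 and Nov climb with Slc17a7, Cck and Ctgf climb less steeply, Sv2b climbs slightly, and Tle4 and Otof form level bands.

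The 13 members that did not pass held 5 pan-excitatory markers besides the upper- and deep-layer genes above. Bhlhe22, a basic helix-loop-helix repressor, had r = 0.719 (adjusted p = 0.0695) over 1.07 to 2.78 CPM. Neurod1 had r = 0.645 (adjusted p = 0.132) and was barely expressed, with 0 counts in mouse Sample_4712, which allows up to 3 counts or 0.0398 CPM, and 0.408 CPM in the highest mouse. Kcnv1, a silent potassium channel subunit, Lmo3 and Lhx2, a LIM homeobox factor, had r of 0.335, 0.160 and -0.233. Lmo3 was the steadiest member, at 98.3 to 117.0 CPM, a 1.19-fold range. Their levels per length varied widely. Tle4, Lmo3, Kcnv1, Etv1 and Lhx2 were at 11.2 to 26.7 CPM per kb, above Neurod2 at 1.56 and Tbr1 at 2.09 CPM per kb, while Neurod1 at 0.0549, Bhlhe22 at 0.588, Rorb at 1.32 and Fezf2 at 1.52 CPM per kb were below both.

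How much of each transcript varied with Slc17a7 was described with a straight line of CPM on Slc17a7 CPM, extended to 0 Slc17a7. For Tbr1 the line met 0 at -0.018% of the mean Tbr1 level, for Neurod2 at 0.795%, for Slc30a3 at 3.66% and for Igfn1 at 7.30%. It met 0 at 19.8% for Nov, 27.0% for Cck, 39.0% for Cplx3 and 53.0% for Ctgf. For Fhl2, Sv2b and Mpped1 it met 0 at 69.9%, 81.4% and 84.6%, and for Lmo3 at 99.6%. The values lie outside the measured range of Slc17a7 and are a description of the fit, with no error given. They order the members from those proportional to Slc17a7 to those with a level nearly independent of it. This order is not the split by the permutation test. Neurod1 at -4.04%, Fezf2 at 58.8% and Bhlhe22 at 59.6% did not pass, though their values lay below those of Fhl2, Sv2b and Mpped1.

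**Figure D3:**
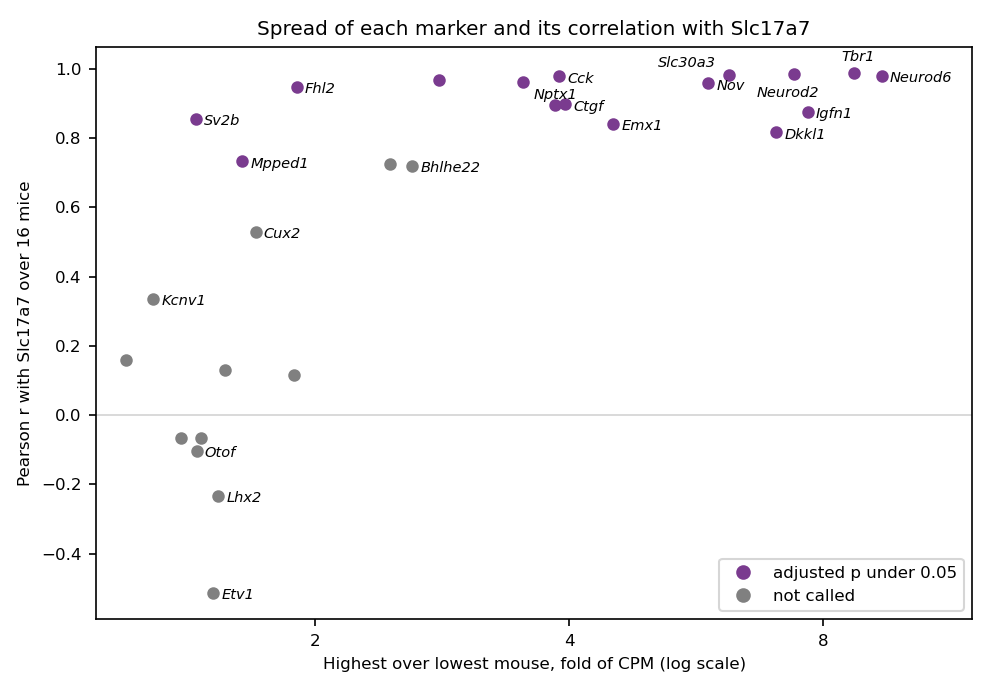
Fold between the highest and the lowest mouse (horizontal, log scale) and Pearson's r with Slc17a7 over 16 mice (vertical) for 28 markers, coloured by whether the permutation test passed at an adjusted p of 0.05. Neurod1 is left out because a mouse had 0 counts. It had the widest span of the members, 4.07 log2 units, and did not pass. Every plotted marker with a wider range than Bhlhe22 (2.60-fold) passed, and Fhl2, Sv2b and Mpped1 passed with ranges of 1.90-fold, 1.44-fold and 1.64-fold.

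Pair by pair, the members that passed and Slc17a7 rose and fell as a block. All 136 pairs among these 17 genes correlated positively, with a median r of 0.874 and a range of 0.508 to 0.988. Since the 17 were chosen by their correlation with Slc17a7, this is a description. Among the 13 others, 32 of 78 pairs were positive, with a median of -0.085. The first principal component of all 30 centred profiles held 83.3% of their variance. The profiles were not scaled, so members that varied widely weigh most in this share (SD 0.97 log2 units for Slc17a7, 0.071 for Lmo3). Mouse Sample_4673 was lowest in 12 of the 17 genes, Sample_4804 was highest in 10, and Sample_4734 was highest in 4. The relation held within each genotype and each sex for the members leading it: r of Tbr1 with Slc17a7 was 0.990 in congenic, 0.976 in wild-type, 0.980 in male and 0.996 in female mice (n = 8 each), and r of Neurod2 was 0.994, 0.988, 0.978 and 0.990. Nov had 0.973, 0.957, 0.966 and 0.931, and Ctgf 0.883, 0.875, 0.950 and 0.845. In the 7 females without Sample_4806, r was 0.996 for Tbr1, 0.989 for Neurod2, 0.930 for Nov and 0.830 for Ctgf.

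Genes outside the list were ranked by the same r, among those with a mean of at least 1 CPM. Among the 10 with the highest r were Sh3gl2, Rspo2, Stx1a, Gm11549, 9130024F11Rik, Prss12, Bdnf, Scube1 and Rtn4r, at r of 0.957 to 0.988 over the 16 mice. Bdnf, a neurotrophin, ranged from 0.759 to 6.21 CPM. Stx1a, a syntaxin of the presynaptic membrane, at 35.3 to 66.0 CPM, and Sh3gl2, an endophilin, at 79.9 to 121.5 CPM, covered ranges of 1.87-fold and 1.52-fold. The 5 with the lowest r were Ppp2r2d, Ilk, Arhgap18, 2610507B11Rik and Tspan12, at r of -0.904 to -0.850, and their ranges were narrow, from 1.14-fold for 2610507B11Rik to 1.39-fold for Tspan12. Without Sample_4673 and Sample_4739, Ppp2r2d passed at r = -0.844 and the other 4 did not.

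Lists of markers for neighbouring tissue and for other cells were read the same way, against the background of 1.73% positive and 0.586% negative calls. These lists too were chosen with earlier results of these data known, and their counts are descriptions. Of 18 other markers of pallial excitatory neurons, 12 had a positive r. The median r of the 18 was 0.533 and the lowest -0.464. The 8 that passed were positive, among them Rtn4rl2, Nrn1, Nxph3, Zfpm2, Rprm, Hs3st2 and Mef2c. Rtn4rl2, a Nogo-receptor relative, ranged from 0.366 to 4.81 CPM with r = 0.950, and the call of Mef2c was lost without Sample_4673, Sample_4677, Sample_4739 or Sample_4804. Without both Sample_4673 and Sample_4739, the calls of Mef2c, Rprm, Hs3st2 and Zfpm2 were lost. Of 4 markers of the claustrum, the sheet of neurons between striatum and insular cortex, Nr4a2 (r = 0.935, 3.19 to 28.3 CPM) and Ntng2 (r = 0.878, 4.39 to 13.1 CPM) passed. Of 10 interneuron markers, Vip, a neuropeptide of cortical interneurons, passed (r = 0.865, adjusted p = 0.00473), at 0.832 to 2.83 CPM, and Npy, the next by r, had 0.546 (adjusted p = 0.238).

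The remaining lists held few or no calls. In the 20 markers of striatal projection neurons 0 passed and 17 of 20 had a negative r, with a median of -0.251. Gng7, the gamma subunit of the striatal G protein, had -0.719 (adjusted p = 0.0556), and Isl1, a factor of the direct-pathway lineage, had -0.685 (adjusted p = 0.0875). Their summed level was 15921 to 19860 CPM in congenic and 16654 to 20246 CPM in wild-type mice. All 9 microglial markers had a negative r, with a median of -0.581, and Trem2 (r = -0.771) and Aif1 (r = -0.727) passed. Both of these calls were lost in 13 of the 16 fits that left out a single mouse and without Sample_4673 and Sample_4739. Of 8 hippocampal, 7 septal and pallidal, 8 thalamic, 10 astrocyte, 10 oligodendrocyte, 8 endothelial, 7 ependymal and 8 choroid plexus markers tested, 0 passed. In these, the genes of largest absolute r were Fibcd1 (0.426), Nkx2-1 (-0.594), Lef1 (0.437), Aldh1l1 (0.551), Mbp (-0.506), Pecam1 (-0.473), Ak7 (0.433) and Aqp1 (0.574). All 7 ependymal markers had a positive r, from 0.140 to 0.433 with a median of 0.297.

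Summed levels of these lists are set beside the members, with their part in the result not tested. The 30 members summed to 819 to 1228 CPM in congenic and 928 to 1235 CPM in wild-type mice, and Neurod1 was the member at 0 in a mouse. The claustrum list summed to 61.7 to 99.2 and 74.2 to 118.2 CPM, the septal and pallidal list to 45.5 to 117.8 and 47.4 to 99.1 CPM, and the ependymal list to 23.1 to 61.4 and 25.2 to 52.2 CPM, congenic first. The microglial list summed to 470 to 557 and 467 to 583 CPM, the astrocyte list to 4288 to 4742 and 4233 to 4707 CPM, and the oligodendrocyte list to 9276 to 12546 and 7810 to 11855 CPM. No gene of these 6 lists was at 0 in a mouse. The genotypes overlapped in each of these sums.

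The study compared genotypes, and its title asks about differential splicing. No member passed between congenic and wild-type mice, although most values pointed the same way. Slc17a7 was at 20.7 CPM in the lowest congenic mouse, 57.2 at the median and 185.8 in the highest, with a mean of 82.5 ± 59.6 (SD, n = 8). In wild-type mice it was at 49.5, 123.9 and 176.9 CPM, with a mean of 118 ± 47.6 (SD, n = 8). The groups overlapped over most of their range, and 3 of 8 congenic mice lay above the wild-type median. The log2 fold change was -0.54 (SE 0.42, 95% interval -1.44 to 0.36), with an adjusted p of 0.999 in edgeR's quasi-likelihood test. An exact two-sided permutation test of the difference in mean log2 CPM, -0.74 (congenic minus wild-type), gave p = 0.129.

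Tbr1 and Neurod2 had the same shape, with an SD in each genotype wider than the difference between the means. The 8 congenic mice averaged 9.70 ± 7.34 CPM of Tbr1 and the 8 wild-type mice 13.2 ± 5.24 CPM (SD), which is -0.45 as a log2 fold change (SE 0.41). For Neurod2 the means were 4.24 ± 2.92 against 5.60 ± 2.52 CPM (SD, 8 mice each), which is -0.42 (SE 0.39). Nov was at 1.95, 4.55 and 8.52 CPM in the lowest, median and highest congenic mouse and at 3.46, 7.29 and 11.4 CPM in their wild-type counterparts, with a log2 fold change of -0.61 (SE 0.31, 95% interval -1.27 to 0.04). Ctgf averaged 9.62 ± 3.81 CPM against 11.9 ± 2.59 CPM (SD), a difference of -0.30 (SE 0.23) on the log2 scale. Sv2b averaged 196.8 ± 27.4 CPM against 210.6 ± 21.2 CPM (SD), a difference of -0.10 (SE 0.06). The steady markers had narrow intervals around 0: Tle4 had 0.02 (95% interval -0.12 to 0.15), Otof -0.02 (-0.18 to 0.14) and Lmo3 -0.01 (-0.09 to 0.07).

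**Figure D4:**
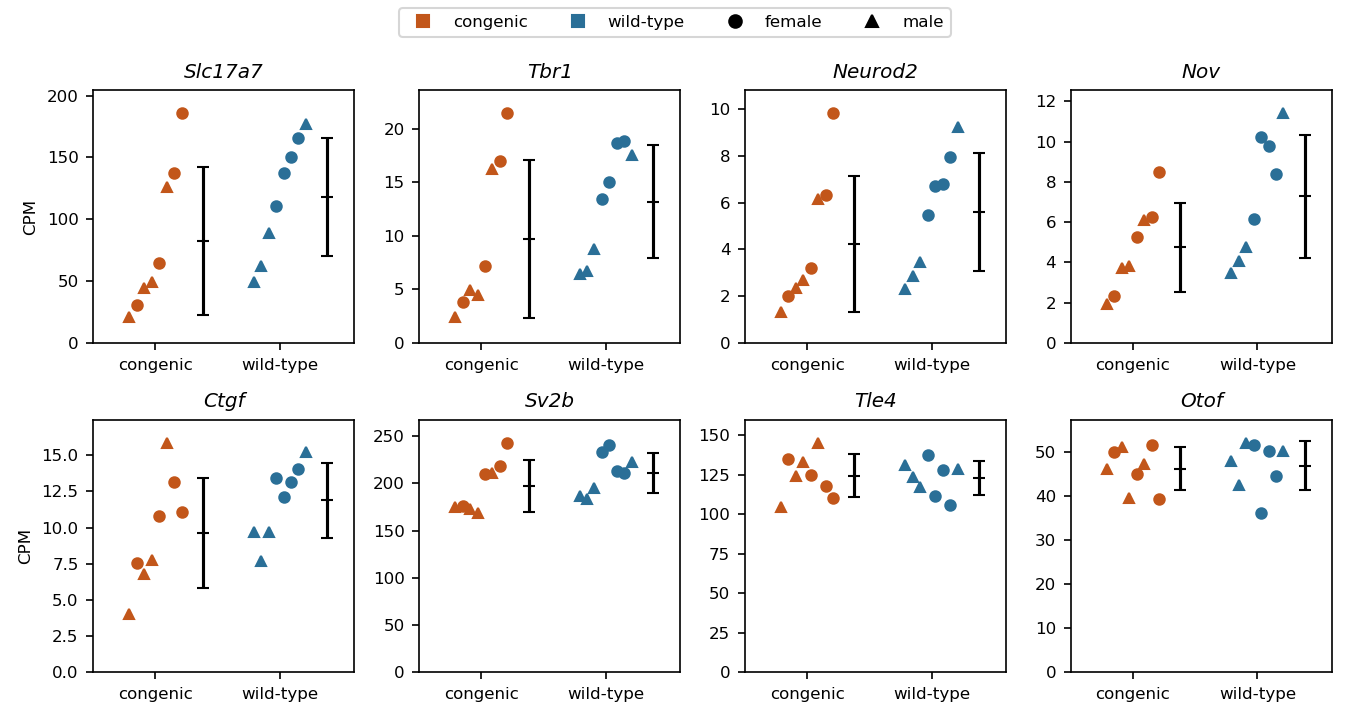
CPM of 8 markers in each congenic and wild-type mouse, with the mean and SD of each genotype (n = 8) as a black bar and the labelled sex as the symbol. In Slc17a7, Tbr1, Neurod2 and Nov the congenic mean is the lower, and the points of the genotypes overlap in every panel.

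Over all 30 members, edgeR called 0 by genotype (0% of all 16716 genes were called), and the genotypes were apart, with no overlap between mice, in 0 of 30 members and in 0% of all genes. At an unadjusted p under 0.05 there were 0 of 30 members, where 1.53% of all genes reached that level. DESeq2 called 0 genes, with 0 of 30 members at that level against 1.6% of all genes, and limma-voom called 0 genes, with 4 of 30 members against 1.72%. The value was negative, lower in congenic mice, in 26 of 30 members, and Etv1, Kcnv1, Rorb and Tle4 had positive values of 0.01 to 0.05. Of all genes, 51.1% had a positive value. The median log2 fold change was -0.23 for the members and 0.0015 for all genes. It was -0.37 over Slc17a7 and the 16 members that varied with it, and -0.02 over the 13 others. Members that vary together across mice are not independent of each other. The median moved with single mice: it was -0.10 without Sample_4734, -0.15 without Sample_4739 and -0.35 without Sample_4671, and the value of Slc17a7 was -0.30 without Sample_4734 and -0.82 without Sample_4671. Without Sample_4734, Tbr1 was at -0.25, Neurod2 at -0.13, Nov at -0.38 and Ctgf at -0.20. Without Sample_4671, Tbr1 was at -0.80, Neurod2 at -0.65 and Ctgf at -0.51. Neurod2 was also at -0.65 without Sample_4804, Ctgf was at -0.19 without Sample_4673 and Sv2b at -0.06 without Sample_4739, and limma-voom put Tbr1 at -0.71.

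**Figure D5:**
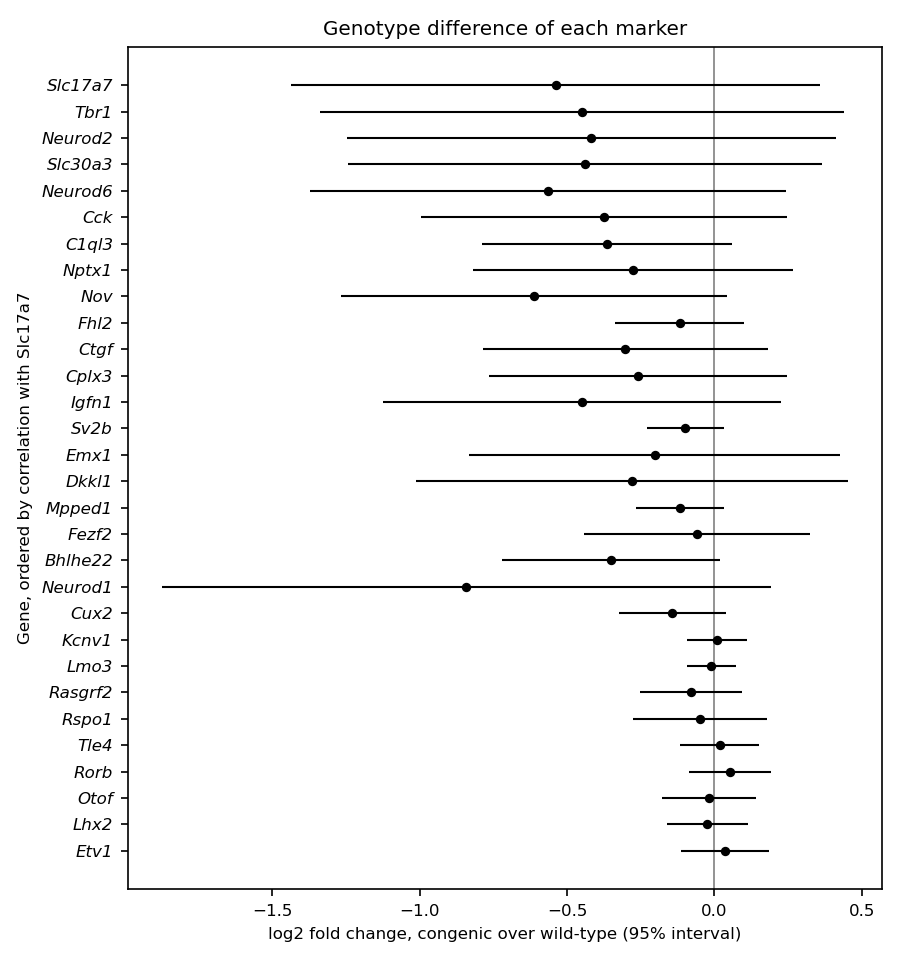
Log2 fold change of each marker between congenic and wild-type mice (points, edgeR with sex in the model) with 95% intervals, ordered by correlation with Slc17a7. Every interval includes 0. The intervals are wide for Slc17a7, Tbr1, Neurod2, Neurod6 and Neurod1 and narrow for Lmo3, Kcnv1 and Tle4.

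With the log2 level of Slc17a7 added to the model, a fit chosen after the data were seen, the median genotype value of the 29 members other than Slc17a7 was -0.0051. Of these 29, 0 reached an unadjusted p under 0.05, against 0.861% of all genes, and 13 were positive, against 49.5% of all genes. In that fit Neurod2 had 0.13 and Tbr1 0.02. Slc17a7 is itself a member and lower on average in congenic mice, so this fit compares members at equal Slc17a7 and gives no genotype effect on the group as a whole.

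Labelled sex was the other factor of the design. For Slc17a7 the mean log2 CPM of males minus that of females was -0.76, which did not pass an exact two-sided permutation test (p = 0.117). Without Sample_4806 it was -0.68 (exact permutation p = 0.182). EdgeR called 0 of 30 members by sex, with 0.138% of all genes called. At an unadjusted p under 0.05 there were 7 of 30 members, all lower in males, where 14.7% of all genes reached that level. They were Sv2b (-0.20), Igfn1 (-0.97), Dkkl1 (-1.01), Emx1 (-0.85), Cplx3 (-0.62), C1ql3 (-0.48) and Fhl2 (-0.24), as log2 fold changes of males over females. The median over the 30 members was -0.29, with 25 of 30 negative. Over all genes the median was -0.0049, and 48.0% of values were positive. Here too, members that vary together are not independent of each other. Without Sample_4806, 0 of 30 members passed. In that fit 9 reached the unadjusted level, 1 of them higher in males, against 10.9% of all genes, and the median of the members was -0.27. Sex cannot be told apart from mouse number for most mice.

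The genotype difference did not depend on sex by a passing test. The interaction of genotype and sex passed for 0 of 30 members and for 0% of all genes, and the median genotype value of the members was -0.19 within males and -0.19 within females, or -0.13 within females without Sample_4806. In males, 1 of 30 members reached an unadjusted p under 0.05 in edgeR, against 2.94% of all genes. In females 0 of 30 did, against 2.19%, or 1 of 30 without Sample_4806, against 2.86%. The member in males was Cux2, with a log2 fold change of -0.29 and an adjusted p of 0.937 in edgeR.

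Exon usage of the members was compared with edgeR's diffSpliceDGE, which sets each exon bin against the rest of its gene. It could be tested in 28 members with 336 bins, and Neurod2 and Bhlhe22 were not tested. The gene-level test passed for 0 of 28 members, with 0.00672% of all 14875 genes called, which is 1 gene. No bin of a member reached an unadjusted p under 0.05, against 1.05% of the 235478 bins of all genes. The smallest was 0.0521, for a bin of Etv1 with a log2 value of -0.30 against the rest of the gene, and the bins of Cux2 and Neurod1 belong to groups of overlapping genes.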

How the data were processed

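The authors deposited raw read counts per gene and per exon bin, which per the file headers cover 48 runs of 16 mice on 3 lanes. Tools listed in the submitters' processing notes, without roles, are limma 3.22.7, edgeR 3.8.6, HTSeq 0.6.1p1 and FastQC 0.10.1, and the builds are mm9 and mm10. The aligner and the strand setting of the counting are not given in the sources used here. Reads of overlapping genes on opposite strands may therefore be shared. Read length and layout are stated in conflicting ways, as 50 bp single-end in the series' design text and as 100 bp paired-end from a stranded library kit per the labels' protocols. The files give gene symbols, and positions come from GENCODE on NCBIM37.

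Lanes were summed per mouse. The edgeR function filterByExpr, run on groups of genotype and sex at 10 counts per gene and 15 in total, chose the genes, and TMM scaled them. CPM per kb used the union of annotated exons. Genotype was tested with edgeR's quasi-likelihood test with sex as a covariate, in R 4.3.3 with edgeR 4.0.16, limma 3.58.1 and DESeq2 1.42.0. Exon usage was tested with diffSpliceDGE. Correlations with Slc17a7 used log2 CPM with a prior count of 2 in Python 3.11.15. Benjamini-Hochberg adjustment ran over all genes tested, and a call needed an adjusted p under 0.05. The scripts were tested on simulated data.

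The members and all marker lists were chosen with earlier results of these data known. Values per mouse were given for Slc17a7 and, in each layer group, for the members of highest CPM per kb and of highest absolute r. Other genes were named as the 10 highest and 5 lowest by r among those of at least 1 CPM, the called genes of each list and the genes of largest absolute r in it. A gene that this rule names is not reported here. Striatal markers of the tissue check and members with intervals near 0 were chosen after their values were seen. Alternatives were DESeq2, limma-voom, other size factors and prior counts, no filter, no covariate, single lanes, Spearman's rho, residuals after genotype and sex, and leaving out mice.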

Additional observations from a re-analysis of the deposited data

How the results depend on the processing

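No paired analysis was possible because mice carry numbers of their own and the genotypes share none. The count of genes called by genotype was 0 under every alternative run, and 15 members passed the correlation with Slc17a7 in the main setting and in each fit without a single mouse, which called 15 to 16 members in all. Mpped1 was also lost without Sample_4673 and Sample_4739 (r = 0.79) and on residuals after genotype and sex (r = 0.73). Spearman's rho called Fezf2 too (0.79), and an edgeR fit with Slc17a7 as a covariate called 19 members, adding Neurod1, Bhlhe22 and Fezf2. Of all 16715 genes, that edgeR fit called 468 (2.8%), against 388 (2.32%) in the main setting and 236 (1.41%) by rho.

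The number of all genes called by that correlation, 388 in the main setting, was 236 by rho, 231 on residuals and 135 without Sample_4673 and Sample_4739. It was 215 to 643 when single mice were left out, 215 without Sample_4673, 247 without Sample_4804 and 643 without Sample_4734. The cause was not tested. Values near 0 changed sign: r of Rorb was 0.053 by rho and 0.17 without Sample_4673 and Sample_4739, and r of Tle4 was 0.053 on residuals.

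Members at an unadjusted p under 0.05 by genotype numbered 0 in the main fit, 2 on lane 3 alone (2.04% of all genes), 4 with limma-voom (1.72%) and 0 to 6 when single mice were left out, with 6 without Sample_4671 (3.49%) and 4 without Sample_4804 (2.67%). On lane 3 alone the log2 fold change was 0.12 for Emx1, 0.0037 for Rspo1 and 0.0071 for Otof. It was 0.0040 for Lmo3, 0.029 for Dkkl1 and -0.0024 for Tle4 on lane 4 alone, and -0.0034 for Kcnv1 on lane 5 alone. With Slc17a7 as a covariate, chosen after seeing the data, it was 0.13 for Neurod2, 0.023 for Tbr1, 0.22 for Emx1, 0.22 for Fezf2, 0.048 for Cck, 0.041 for Cplx3, -0.021 for Etv1, 0.25 for Dkkl1, 0.059 for Fhl2, 0.084 for Slc30a3 and 0.049 for Nptx1. Genes called by sex numbered 23, 259 by DESeq2 and 15 without Sample_4806, and genes called for exon usage 1, and 0 by limma's diffSplice. Depth limited Neurod1 most, with under 0.5 CPM in every mouse.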
